A study of Mus musculus with 20 samples.

Results

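The 5 chemokine receptor genes *Cxcr4*, *Ackr3*, *Ccr1*, *Ccr2* and *Cx3cr1* were examined in the abdominal aorta. They were chosen by name, as receptors for chemokines that steer leukocytes, and all 5 were found among the 43422 genes measured. RNA of the abdominal aorta of 20 C57BL/6 mice was sequenced after 14 days of infusion through osmotic pumps. The labels give an age of 6 months, whereas the study's methods give a younger age at pump implantation. The 4 groups of 5 mice were wild-type (WT) mice given saline, WT mice given angiotensin II (Ang II) at 1000 ng/kg per minute, and *Plod1*-/- mice given saline or the same dose of Ang II. *Plod1* encodes lysyl hydroxylase 1 (LH1), an enzyme that modifies collagen before crosslinking, and its loss in these mice is in the whole body and not limited to the vessel wall. Per the study's methods the mice were male littermates from heterozygous parents on the C57Bl/6NCrl background. The labels do not name litters or cages, so p-values measure the spread between these mice.

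Chemokine receptors are membrane proteins with 7 transmembrane helices that couple to inhibitory G proteins and direct cells along gradients of chemokines. CXCR4 is the signalling receptor of CXCL12 and holds or recruits myeloid cells, lymphocytes and progenitors, whereas ACKR3, the atypical receptor of the same ligand, binds and removes it without classical G protein signalling. CCR1 binds CCL3, CCL5, CCL6 and CCL9 and is carried by neutrophils, monocytes and macrophages. CCR2 binds CCL2, CCL7 and CCL12 and brings inflammatory monocytes out of the marrow into tissue. CX3CR1 binds the membrane-bound CX3CL1 and marks patrolling monocytes and many tissue macrophages.

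The 5 genes lie on chromosomes 1 and 9 of the mouse genome (GRCm38, GENCODE annotation), and all are protein coding. *Cxcr4* (ENSMUSG00000045382) is at chr1:128588199-128592293 on the minus strand and *Ackr3* (ENSMUSG00000044337) at chr1:90203980-90216751 on the plus strand. *Ccr1* (ENSMUSG00000025804) is at chr9:123962124-123968692 on the minus strand, near *Ccr2* (ENSMUSG00000049103) at chr9:124101950-124113557 on the plus strand. *Cx3cr1* (ENSMUSG00000052336) is annotated at chr9:119901616-120069879 on the minus strand. That span contains or overlaps 9 other genes, but only the antisense gene *Gm33858*, which reached at most 0.56 FPKM, shares exonic bases with *Cx3cr1*. The libraries were not strand-specific, so reads of the shared bases cannot be assigned to one of the pair.

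The promoter windows of *Cxcr4*, *Ackr3* and *Ccr1* are shown because these 3 genes stood for the different patterns described below. *Cxcr4* was called with Ang II in both genotypes and *Ackr3* in neither, with the filter on low values or without it. *Ccr1* was called in *Plod1*-/- mice and had a called interaction. Each window is the RefSeq sequence (GRCm38.p6) from 250 bases before to 50 after the start of the RefSeq gene, written 5′ to 3′ on the gene's strand, with the bases GAGGAA, the core bound by the myeloid factor PU.1, in capitals. The windows lie at chr1:128592250-128592549 (minus strand), chr1:90203730-90204029 (plus strand) and chr9:123968643-123968942 (minus strand). The RefSeq start equals the GENCODE gene start above for *Ackr3* and *Ccr1* and lies 6 bases upstream of it for *Cxcr4*. For *Ccr2* and *Cx3cr1*, whose windows were searched but are not shown, it lies 233 and 1583 bases downstream.
Cxcr4: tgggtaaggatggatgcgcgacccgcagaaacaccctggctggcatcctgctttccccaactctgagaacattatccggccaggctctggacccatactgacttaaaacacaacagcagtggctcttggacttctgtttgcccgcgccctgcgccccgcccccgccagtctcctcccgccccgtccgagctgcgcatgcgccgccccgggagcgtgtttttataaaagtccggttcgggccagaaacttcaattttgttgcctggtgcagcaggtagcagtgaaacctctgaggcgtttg
Ackr3: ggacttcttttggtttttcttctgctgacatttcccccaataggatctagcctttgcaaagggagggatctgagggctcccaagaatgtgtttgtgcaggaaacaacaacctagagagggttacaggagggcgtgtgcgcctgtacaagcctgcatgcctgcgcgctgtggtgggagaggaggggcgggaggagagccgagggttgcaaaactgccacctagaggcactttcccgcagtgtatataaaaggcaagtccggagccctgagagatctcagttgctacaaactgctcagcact
Ccr1: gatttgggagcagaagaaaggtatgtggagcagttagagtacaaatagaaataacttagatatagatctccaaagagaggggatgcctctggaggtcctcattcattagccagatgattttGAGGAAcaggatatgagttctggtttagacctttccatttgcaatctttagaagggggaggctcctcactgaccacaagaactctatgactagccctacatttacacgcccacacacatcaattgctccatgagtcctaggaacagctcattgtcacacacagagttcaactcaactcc
Searched on both strands of the 5 windows, GAGGAA was found once, in *Ccr1*. It occurred in 28.3% of all 32851 windows of 300 bases. The hypoxia response core ACGTG, present in 19.6% of windows, and the AP-1 site TGANTCA, present in 7.81%, were in none of the 5. Each motif was counted on its own, with overlaps allowed, and a missing match says only that these letters are not in the window. The *Cxcr4* window held 20 CpG dinucleotides, against a median of 7 over all windows, and 24.8% of windows held more. *Ackr3* had 8 and *Cx3cr1* 5, while *Ccr1* and *Ccr2* had 1 each. The GC content was 59.3% for *Cxcr4*, 54% for *Ackr3*, 54.3% for *Cx3cr1*, 44% for *Ccr1* and 38% for *Ccr2*, with a median of 52.7% over all windows.

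Levels are given as FPKM, fragments per kilobase of transcript scaled to the mapped fragments of the library, which the authors deposited for each mouse. FPKM summed to between 344207 and 437790 per library, and the relative depth of the libraries, estimated from the spacing of their lowest values, ran from 0.906 to 1.09 of the median library. *Plod1* was at least 22.8 FPKM in every WT mouse and at most 0.0415 in every *Plod1*-/- mouse. *Xist*, the RNA of the inactive X chromosome, was at 15.1 FPKM in saline-infused *Plod1*-/- replicate 5 and at 7.93 in Ang II-infused *Plod1*-/- replicate 1, but at no more than 0.0328 in the other 18 libraries, although the methods describe male mice. Ang II-infused *Plod1*-/- replicate 1 was also the lowest of its group for each of the 5 receptors, and Ang II-infused WT replicate 1 the highest of its group for each of them. Results are therefore also given without these libraries where they bear on a call.

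Under saline, the order of the 5 genes was led by *Ackr3* and *Cxcr4* in every mouse of both genotypes. *Ackr3* made up 72.6% to 92.5% of the summed FPKM of the 5 genes in saline-infused WT mice and 74.6% to 86.0% in saline-infused *Plod1*-/- mice. In Ang II-infused *Plod1*-/- mice its share was 14.4% to 57.7%, and *Cxcr4* ranked first in 3 of the 5 mice and *Ackr3* in the other 2. *Ccr1* ranked second in 3 of those mice, above *Ackr3*. The summed FPKM of the 5 genes had a median of 13.5 in saline-infused WT, 24.4 in Ang II-infused WT, 13.3 in saline-infused *Plod1*-/- and 88.2 in Ang II-infused *Plod1*-/- mice. The last group ran from 25.1 to 140 and overlapped the range of 23.0 to 38.6 in Ang II-infused WT mice through replicate 1.

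**Figure D1:**
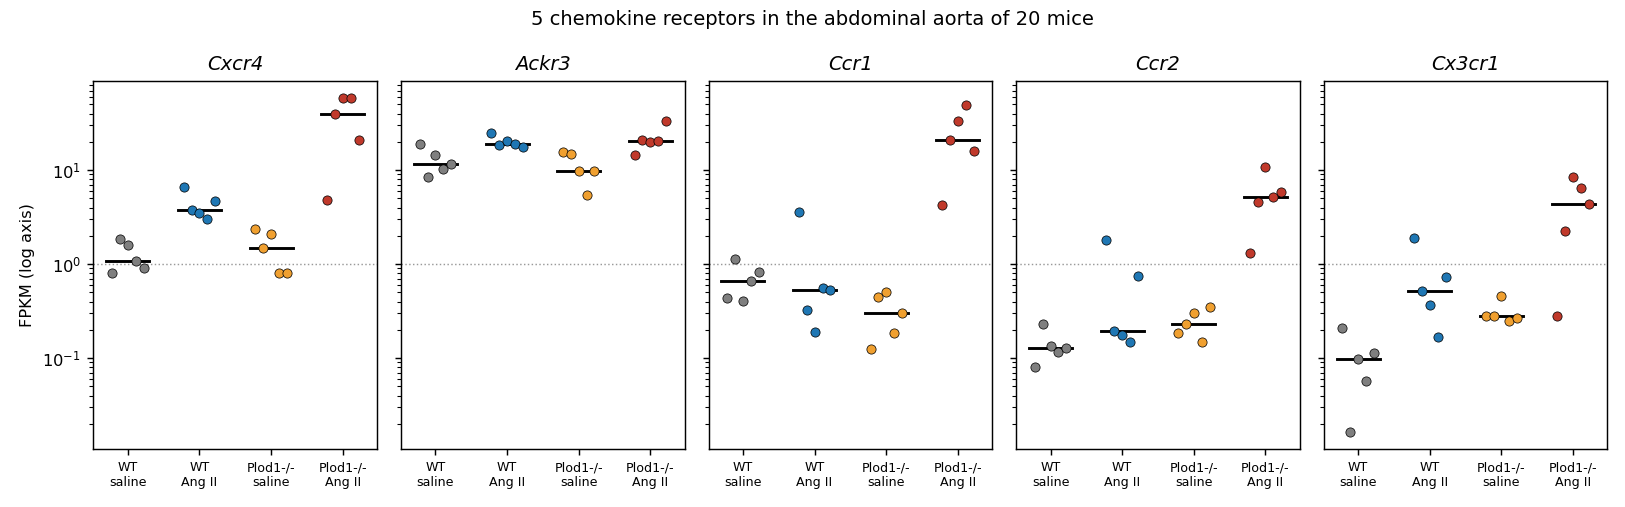
FPKM of the 5 receptor genes (log axis) in each of the 20 mice, 1 point per mouse in replicate order within each group, with a bar at the group median and a dotted line at 1 FPKM. *Ackr3* lay between 5.41 and 33.7 FPKM in all groups, whereas the other 4 genes were highest in Ang II-infused *Plod1*-/- mice, where replicate 1 (leftmost) was the lowest of its group for each gene.

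The comparisons were made on log2(FPKM + 1), which understates the change of genes with low levels. A gene was called when its Benjamini-Hochberg adjusted p from limma was below 0.05 and its log2 fold change above 1 in size. The limma fit took genes with at least 1 FPKM in at least 5 of the mice compared. A receptor under that level was compared by a two-sided exact permutation test, whose smallest possible p with 5 mice against 5 is 0.00794. *Ccr1* and *Ccr2* entered the fit of *Plod1*-/- mice only through their Ang II-infused group, and between the Ang II-infused genotypes 1 WT mouse, replicate 1, reached 1 FPKM for either. Counts over the 5 genes are therefore read from a fit with no filter on low values, in which all 5 were tested.

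*Cxcr4* rose with Ang II in both genotypes, and more in *Plod1*-/- mice. Its FPKM was 0.802, 1.84, 1.61, 1.07 and 0.911 in saline-infused WT mice and 6.60, 3.73, 3.53, 2.99 and 4.70 in Ang II-infused WT mice (means 1.25 ± 0.455 and 4.31 ± 1.42, SD, n = 5 each). In saline-infused *Plod1*-/- mice it was 2.35, 1.47, 2.11, 0.814 and 0.809, and in Ang II-infused *Plod1*-/- mice 4.81, 39.6, 58.3, 58.9 and 20.9 (means 1.51 ± 0.713 and 36.5 ± 23.6, SD, n = 5 each). In both genotypes the lowest Ang II-infused mouse stood above the highest saline-infused mouse, and 4 of the 5 Ang II-infused *Plod1*-/- mice stood above all Ang II-infused WT mice. The ratio of mean FPKM of Ang II-infused to saline-infused mice was 3.46 in WT and 24.2 in *Plod1*-/- mice.

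The log2 fold change of *Cxcr4* was 1.23 ± 0.19 (SE) in WT (limma, adjusted p = 0.00204) and 3.55 ± 0.58 in *Plod1*-/- mice (adjusted p = 0.000801). The difference between these responses, the interaction of genotype and treatment, was 2.32 ± 0.64 (limma, adjusted p = 0.00864). Between the genotypes under saline, *Cxcr4* differed by 0.14 ± 0.20 (adjusted p = 0.694). Without Ang II-infused *Plod1*-/- replicate 1 the response in *Plod1*-/- mice was 4.12 and the interaction 2.89, and without Ang II-infused WT replicate 1 the response in WT was 1.09, with each of these 3 values still called.

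*Ackr3*, the scavenging partner of *Cxcr4*, was not called in any of the comparisons, with the filter on low values or without it. Its FPKM was 18.8, 8.52, 14.6, 10.2 and 11.5 in saline-infused WT and 24.8, 18.5, 20.2, 19.1 and 17.7 in Ang II-infused WT mice. In *Plod1*-/- mice it was 15.5, 14.9, 9.90, 5.41 and 9.90 under saline and 14.5, 20.7, 19.8, 20.2 and 33.7 under Ang II. The ranges under saline and Ang II overlapped through saline-infused replicate 1 in WT and through Ang II-infused replicate 1 in *Plod1*-/- mice. The log2 fold change with Ang II was 0.66 ± 0.19 (SE) in WT (limma, adjusted p = 0.0198) and 0.94 ± 0.28 in *Plod1*-/- mice (adjusted p = 0.0193), both under the size of 1 that a call needed. With no filter the adjusted p from limma was 0.0575 in WT and 0.0498 in *Plod1*-/- mice.

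Between Ang II-infused *Plod1*-/- and WT mice *Ackr3* differed by 0.07 ± 0.20 on the log2 scale (limma, adjusted p = 0.798), a value that was -0.03 after quantile normalization and with mitochondrial genes left out. The interaction was 0.28 ± 0.35 (adjusted p = 0.545). The response in *Plod1*-/- mice was called in 3 of 10 alternative settings and in 3 of 10 fits that left out one mouse. It was 1.06 without Ang II-infused replicate 1 and 1.04 without both libraries with *Xist* RNA.

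The balance of the 2 *Cxcl12* receptors can be read within each mouse. *Cxcr4* FPKM per *Ackr3* FPKM ran from 0.0427 to 0.216 in saline-infused WT, from 0.156 to 0.267 in Ang II-infused WT and from 0.0817 to 0.213 in saline-infused *Plod1*-/- mice. In Ang II-infused *Plod1*-/- mice it ran from 0.332 to 2.95 with a median of 1.91. The lowest mouse of that group, replicate 1, thus stood above every mouse of the other 3 groups. Its *Ackr3*, at 14.5 FPKM, was the lowest of the group, and its *Cxcr4*, at 4.81, was below the 6.60 of Ang II-infused WT replicate 1. The share of all genes that separate in this way per *Ackr3* was not counted, so the separation is a description only.

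*Ccr1* had the largest log2 fold change of the 5 genes with Ang II in *Plod1*-/- mice. It was 0.435, 1.14, 0.403, 0.670 and 0.830 FPKM in saline-infused WT and 3.55, 0.326, 0.190, 0.554 and 0.529 in Ang II-infused WT mice. In saline-infused *Plod1*-/- mice it was 0.124, 0.452, 0.511, 0.186 and 0.302 FPKM, and in Ang II-infused *Plod1*-/- mice 4.24, 21.1, 33.0, 49.3 and 16.1. Every Ang II-infused *Plod1*-/- mouse stood above all 15 mice of the other groups, and among the Ang II-infused WT mice only replicate 1 exceeded the saline-infused range.

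The mean of *Ccr1* in *Plod1*-/- mice was 0.315 ± 0.166 FPKM under saline and 24.8 ± 17.2 under Ang II (SD, n = 5 each), a ratio of 78.7. The log2 fold change was 3.95 ± 0.49 (SE, adjusted p from limma = 0.000189, and 0.000822 with no filter). In WT mice the difference was 0.07, with an exact permutation p of 0.937, and without Ang II-infused WT replicate 1 it was -0.27 (exact permutation p = 0.135). Ang II-infused *Plod1*-/- exceeded Ang II-infused WT mice by 3.52 ± 0.57 (adjusted p = 0.00255, and 0.0106 with no filter). Its interaction was 3.88 ± 0.62 (limma, adjusted p = 0.000210, and 0.00082 with no filter). Under saline the log2 difference of *Plod1*-/- from WT mice was -0.36, with overlapping ranges and an exact permutation p of 0.0476.

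*Ccr2* was also highest in Ang II-infused *Plod1*-/- mice, at lower levels than *Ccr1*. Its FPKM was 0.0804, 0.230, 0.136, 0.116 and 0.128 in saline-infused WT and 1.80, 0.194, 0.176, 0.150 and 0.742 in Ang II-infused WT mice. In *Plod1*-/- mice it was 0.187, 0.229, 0.299, 0.150 and 0.354 under saline and 1.30, 4.53, 10.7, 5.23 and 5.89 under Ang II. The Ang II-infused *Plod1*-/- mice did not overlap their saline-infused controls, but replicate 1 lay below Ang II-infused WT replicate 1. The log2 fold change in *Plod1*-/- mice was 2.22 ± 0.34 (SE, adjusted p from limma = 0.000567, and 0.00236 with no filter), against 0.41 in WT (exact permutation p = 0.0714). The Ang II-infused genotypes differed by 1.93 ± 0.40 (adjusted p = 0.00675, and 0.0237 with no filter) and the interaction was 1.80 ± 0.43 (adjusted p = 0.00364, and 0.0114 with no filter). Under saline the log2 difference of *Plod1*-/- from WT mice was 0.13 (exact permutation p = 0.0556).

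*Cx3cr1* was the lowest of the 5 in 4 of 5 saline-infused WT and 4 of 5 Ang II-infused *Plod1*-/- mice. It was 0.209, 0.0164, 0.0982, 0.0578 and 0.113 FPKM in saline-infused WT and 1.91, 0.520, 0.367, 0.170 and 0.728 in Ang II-infused WT mice. In *Plod1*-/- mice it was 0.280, 0.284, 0.456, 0.249 and 0.269 under saline and 0.282, 2.23, 8.50, 6.46 and 4.40 under Ang II. Replicate 1 of the last group was at the saline level, and its other 4 mice stood above all other mice of the study.

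In *Plod1*-/- mice the log2 difference of *Cx3cr1* with Ang II was 1.74 (exact permutation p = 0.0238), and in the fit with no filter on low values it passed the test (limma, adjusted p = 0.0303). In WT mice it was 0.59 (exact permutation p = 0.0159). The Ang II-infused genotypes differed by 1.40 ± 0.49 (SE, adjusted p = 0.0479), a call that was lost in 5 alternatives, with an adjusted p of 0.128 when no filter was applied, and on leaving out any one of 8 of the 10 mice. The interaction, at 1.15 ± 0.52, did not pass (adjusted p = 0.0893), but reached 1.59 without Ang II-infused *Plod1*-/- replicate 1 (adjusted p = 0.00159) and 1.36 without Ang II-infused WT replicate 1 (adjusted p = 0.0445). Under saline every *Plod1*-/- mouse was above every WT mouse for *Cx3cr1*, a difference of 0.25 at levels under 0.5 FPKM. Its exact permutation p of 0.00794 is the smallest that 5 against 5 mice can give, and in the fit across all genes with no filter it did not pass (limma, adjusted p = 0.138).

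**Figure D2:**
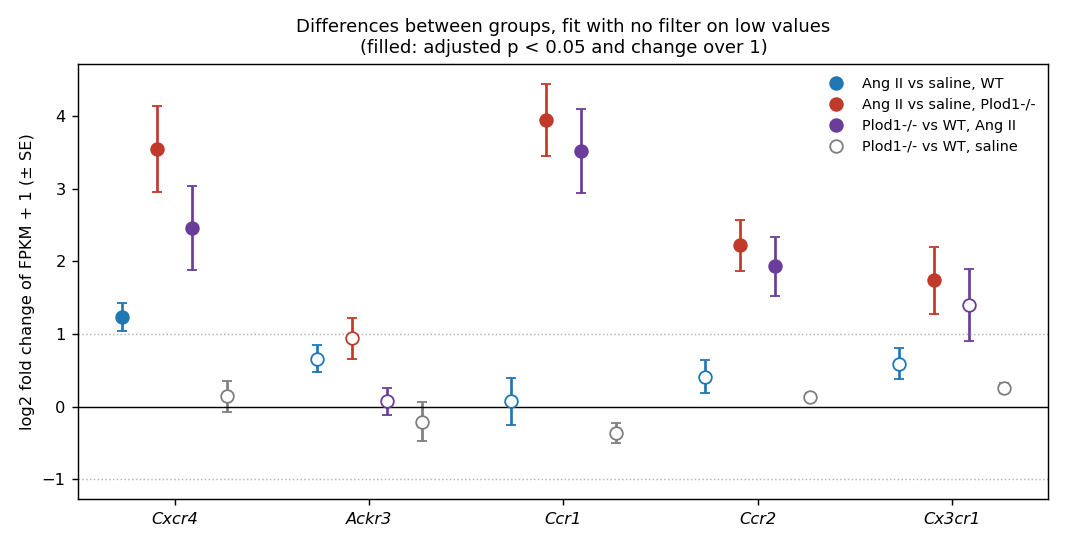
Differences between groups in log2(FPKM + 1), with SE as error bars, for the 5 receptor genes in 4 comparisons of 5 against 5 mice, from the limma fit with no filter on low values. Filled symbols passed an adjusted p of 0.05 with a change over 1 (dotted lines): 4 genes for Ang II in *Plod1*-/- mice, 1 in WT mice, 3 between the Ang II-infused genotypes and 0 between the saline-infused genotypes.

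With no filter on low values, 4 of the 5 receptors were called higher with Ang II in *Plod1*-/- mice, against 3.16% of the 38919 genes tested. In WT mice 1 of 5 was called higher, *Cxcr4*, against 1.94% of 40228 genes. Between the Ang II-infused genotypes 3 of 5 were called higher in *Plod1*-/- mice (*Cxcr4*, *Ccr1* and *Ccr2*), against 2.14% of genes, and the interaction was called positive for the same 3, against 2.97%. Between the saline-infused genotypes 0 of 5 were called in limma, against 0.102% of genes called in either direction, while *Ccr1* and *Cx3cr1* had an unadjusted p below 0.05. With the filter, the shares of genes called were 8.38% for Ang II in *Plod1*-/-, 6.38% for Ang II in WT, 7.45% between the Ang II-infused genotypes, 9.69% for the interaction and 0.767% between the saline-infused genotypes.

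Receptors whose groups did not overlap were counted as well. In *Plod1*-/- mice 3 of 5 receptors (*Cxcr4*, *Ccr1*, *Ccr2*) were higher in every Ang II-infused than in every saline-infused mouse, as were 7.37% of all genes. In WT mice this held for *Cxcr4* alone of the 5, and for 4.26% of genes. Between Ang II-infused genotypes it held for *Ccr1* alone, and for 5.06% of genes, and between saline-infused genotypes for *Cx3cr1* alone, and for 1.65% of genes. The comparisons share groups of mice, so these counts are not independent of one another.

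Leukocyte genes moved with the receptors. *Cxcr4*, *Ccr1*, *Ccr2* and *Cx3cr1* are carried by leukocytes and *Cxcr4* and *Ackr3* by cells of the vessel wall, and in whole aorta more cells of a type and more RNA per cell cannot be told apart. *Ptprc*, which encodes the pan-leukocyte phosphatase CD45, was 0.120 to 0.241 FPKM in saline-infused WT, 0.193 to 1.09 in Ang II-infused WT, 0.149 to 0.364 in saline-infused *Plod1*-/- and 0.607 to 5.50 in Ang II-infused *Plod1*-/- mice. The summed FPKM of 8 pan-leukocyte genes, *Ptprc* among them, ran from 40.6 to 66.9, from 40.7 to 279, from 21.0 to 74.2 and from 188 to 1211 in these groups. With no filter on low values 8 of 8 were called higher with Ang II in *Plod1*-/- mice, 0 of 8 in WT mice, and 8 of 8 between the Ang II-infused genotypes.

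Markers of single leukocyte types were read in the same way. With Ang II in *Plod1*-/- mice and no filter on low values, 6 of 9 neutrophil genes, 9 of 10 macrophage genes and 8 of 10 monocyte genes were called higher and none lower. The remaining macrophage gene, *Mertk*, went the other way, from a mean of 28.4 to 17.3 FPKM in *Plod1*-/- and from 39.0 to 15.2 in WT mice. In WT mice 1 of 10 macrophage genes was called lower with Ang II and 0 higher with no filter. Neutrophil genes, among them *S100a8* and *S100a9*, summed to 1.48 to 3.63 FPKM in saline-infused and 157 to 727 in Ang II-infused *Plod1*-/- mice, and to 3.12 to 59.9 and 7.05 to 202 in the WT groups. Macrophage genes summed to 94.4 to 239 and 658 to 3753 FPKM in *Plod1*-/- mice, and to 168 to 280 and 216 to 1312 in WT mice. *Lyz2*, a lysozyme of macrophages and neutrophils, held 72.9% to 82.8% of that sum in Ang II-infused *Plod1*-/- mice, and the other 9 genes summed to 52.8 to 76.8 and 157 to 846 in *Plod1*-/- mice, and to 85.4 to 139 and 66.7 to 303 in WT mice.

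Monocyte genes summed to 34.6 to 295 and 927 to 6500 FPKM in *Plod1*-/- mice, and to 40.8 to 120 and 134 to 4839 in WT mice. Most of the Ang II-infused sums was *Hp*, which encodes the acute phase protein haptoglobin and is also expressed outside monocytes, with 85.0% to 95.7% in *Plod1*-/- and 76.3% to 96.9% in WT mice. The other 9 genes summed to 18.1 to 37.0 and 58.2 to 457 FPKM in *Plod1*-/- mice, and to 18.5 to 30.2 and 20.3 to 149 in WT mice. Among them *Ly6c2*, a surface marker of inflammatory monocytes, was at most 4.61 FPKM in any mouse, and the log2 difference of *Vcan* with Ang II in *Plod1*-/- mice was -0.57 ± 0.23 (SE, adjusted p from limma = 0.0706).

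Of 8 genes of resident adventitial macrophages, 3 were called higher and 1 lower with Ang II in *Plod1*-/- mice, and the summed FPKM was 685 to 839 under saline and 490 to 672 under Ang II. Those called higher were *Cd163*, *F13a1* and *Mrc1*. Of these, *F13a1* was also counted among the monocyte genes above and *Mrc1* among the macrophage genes. *Cbr2* and *Gas6* held 93.3% to 98.1% of the sum under saline. Which cells carried these genes was not tested, and *Ptprc* was at most 0.364 FPKM in the same mice. *Cbr2* fell by 1.18 on the log2 scale, from 336 to 482 FPKM to 109 to 272 (limma, adjusted p = 0.00258), and the difference of *Gas6* was -0.48 (adjusted p = 0.0925). The other 6 genes summed to 13.3 to 47.7 FPKM under saline and 39.1 to 184 under Ang II. Among them the scavenger receptor *Cd163* rose by 2.16 (limma, adjusted p = 0.0140), while the change of the folate receptor *Folr2*, 0.99, was under the size of a call (adjusted p = 0.00442).

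Of 11 T and NK cell genes 2 and of 6 B cell genes 1 reached the filter there, and none was called. T and NK cell genes summed to no more than 20.0 and B cell genes to no more than 13.7 FPKM in any mouse. No marker of these lists was at 0 in every mouse of a group. The part of cell content in the receptor values was not tested.

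Other tissue genes also moved with Ang II. Adipocyte genes summed to 94.3 to 600 FPKM in saline-infused and 1040 to 5883 in Ang II-infused WT mice, with 7 of 8 called higher, and to 155 to 1934 and 475 to 3513 in *Plod1*-/- mice, with 2 of 8 called higher, or 1 with no filter. All 5 red blood cell genes were called higher with Ang II in *Plod1*-/- mice, where they summed to 763 to 9716 FPKM against 60.0 to 1523 under saline, and 0 of 5 in WT mice. Of 8 contractile smooth muscle genes 6 were called lower in *Plod1*-/- and 3 in WT mice, and 3 and 3 with no filter. Of 9 endothelial genes 2 were called higher in *Plod1*-/- and 4 in WT mice (1 and 2 with no filter), of 7 fibroblast genes 2 and 0, and of 5 skeletal muscle genes 0 and 3 (0 and 0 with no filter). Mitochondrial genes took 14.6% to 29.1% of the FPKM sum in Ang II-infused WT mice and 8.37% to 21.1% in the other groups. Their part in the receptor values was not tested, beyond the fit with mitochondrial genes left out.

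Set against *Ptprc* in the same mouse, the receptors fell into different patterns. *Ptprc* was at most 0.364 FPKM in saline-infused mice and at most 0.449 in Ang II-infused WT mice other than replicate 1. The ratios of those mice thus rest on a low denominator, and ratios to other pan-leukocyte genes were not computed. *Ccr1* FPKM per *Ptprc* FPKM was 6.98, 9.23, 6.00, 13 and 5.13 in Ang II-infused *Plod1*-/- mice, against 0.372 to 2.01 in saline-infused *Plod1*-/- and 0.984 to 3.24 in Ang II-infused WT mice. It was thus higher in every mouse of the group than in either of these, and 1.80 to 5.86 in saline-infused WT mice. Of all genes, 0.326% were higher per *Ptprc* in every Ang II-infused than in every saline-infused *Plod1*-/- mouse, and 0.323% in every Ang II-infused *Plod1*-/- than in every Ang II-infused WT mouse, and *Ccr1* was the only one of the 5 receptors in either set.

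*Cxcr4* per *Ptprc* overlapped between all groups, with medians of 8.25 in saline-infused WT, 11.7 in Ang II-infused WT, 5.79 in saline-infused *Plod1*-/- and 10.6 in Ang II-infused *Plod1*-/- mice. *Ccr2* per *Ptprc* had medians of 0.698, 0.913, 1.01 and 1.94 in the same order, and *Cx3cr1* per *Ptprc* of 0.503, 1.75, 1.27 and 1.40. For both, the range of Ang II-infused *Plod1*-/- mice overlapped those of saline-infused *Plod1*-/- and Ang II-infused WT mice. *Ackr3* per *Ptprc* was 27.2 to 66.6 in saline-infused and 3.60 to 23.9 in Ang II-infused *Plod1*-/- mice, lower in every mouse, as were 35.2% of all genes.

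**Figure D3:**
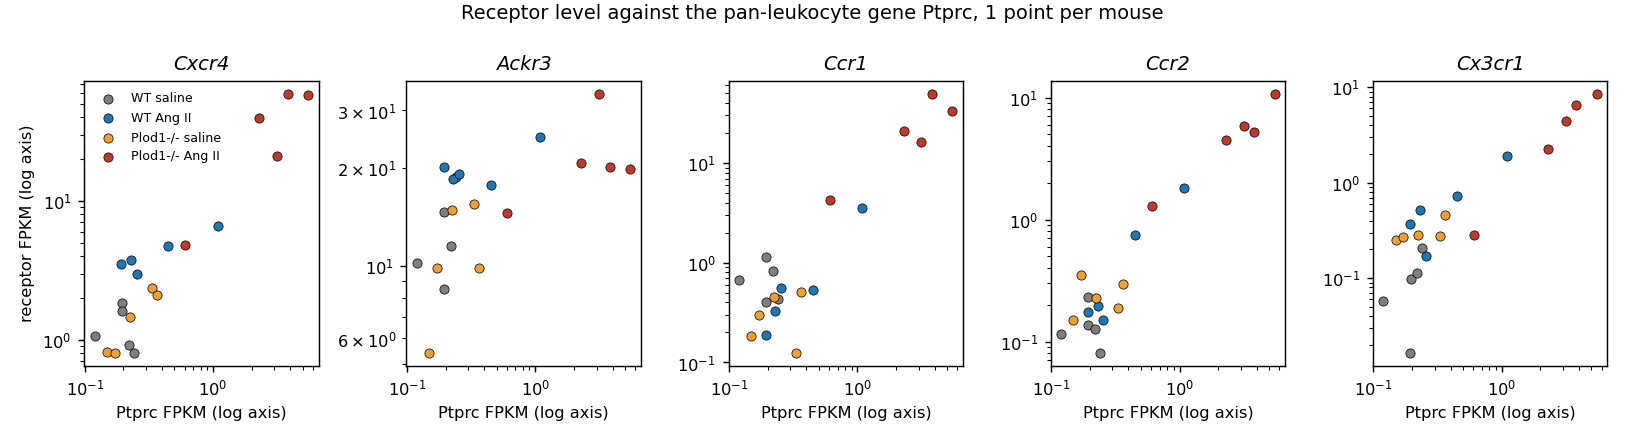
FPKM of each receptor against FPKM of *Ptprc* (both log axes), 1 point per mouse and coloured by group. *Cxcr4*, *Ccr1*, *Ccr2* and *Cx3cr1* were highest in the mice with the highest *Ptprc*, whereas *Ackr3* stayed between 5.41 and 33.7 FPKM over the whole range of *Ptprc*.

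The 5 receptors also differed in which genes varied with them from mouse to mouse. After the group means were subtracted from log2(FPKM + 1), *Ccr2* and *Cx3cr1* had a Pearson r of 0.92 over the 20 mice, and *Cxcr4* and *Ccr1* of 0.86. *Ackr3* had an r of 0.18 to 0.34 with the other 4. Without that subtraction its r with them was 0.51 to 0.63, against 0.92 to 0.96 among the other 4. The points share libraries, and the highest values come from 1 group, so these correlations are descriptions.

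Among 13237 genes, those most like *Cxcr4* by that measure were *Mir142hg* (r = 0.970), *Abcc3* (0.956), *Ikzf1* (0.955), *Sash3* (0.948) and *Rgs14* (0.942). *Mir142hg* and *Ikzf1* are hematopoietic genes. Those most like *Ccr1* were *Adam8* (r = 0.979), a metalloprotease of myeloid cells, *Cd300lf* (0.970), *Msr1* (0.965), the macrophage scavenger receptor, *Fgr* (0.959) and *Cd84* (0.959). *Ccr2* had, among others, *Ptprc* (r = 0.950), *Uhrf1* (0.949), *Nxpe5* (0.947) and *Birc5* (0.946). *Cx3cr1* had *Ptprc* (r = 0.979), *Uhrf1* (0.970), *Racgap1* (0.970), *Ly9* (0.968) and *Ptpro* (0.962). *Uhrf1*, *Birc5* and *Racgap1* are genes of dividing cells. *Ackr3* had lower maxima, with *Lrrn4cl* (r = 0.824), *Anpep* (0.817), *Add3* (0.816), *Zfp521* (0.810) and *Disp1* (0.799).

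Without subtracting group means, the highest r over the 20 mice was 0.980 for *Cxcr4*, with *Dennd1c*, 0.996 for *Ccr1*, again with *Adam8*, and 0.989 for *Ccr2*, with *Evi2a*. It was 0.980 for *Cx3cr1*, with *Pik3ap1*, and 0.901 for *Ackr3*, with *Anpep*, which encodes an aminopeptidase of stromal and myeloid cells.

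Ligands of the 5 receptors, taken from a list of 14 genes, rose with Ang II in *Plod1*-/- mice for most members. Of the 14, 13 were tested and 10 called higher with a median log2 fold change of 2.66, against 0.05 over all genes tested. The list also holds *Ccl4* and *Ccl8*, which were not given above as ligands of any of the 5 receptors, and both were among the 10. In WT mice 1 was called higher (*Ccl8*) and 2 lower (*Ccl2* and *Ccl7*) among 11 tested, with a median of 0.07 against -0.14 over all genes. Between the Ang II-infused genotypes 9 of 13 tested were called higher in *Plod1*-/- mice, with a median of 2.05 against 0.12. Between the saline-infused genotypes 2 of 10 tested were called lower in *Plod1*-/- mice and 0 higher, with a median of -0.39 against -0.01. With no filter on low values 10 of 14 were called higher in *Plod1*-/- mice, 1 higher and 1 lower in WT mice, and 8 higher between the Ang II-infused genotypes. None was called between the saline-infused genotypes with no filter.

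*Cxcl12*, the ligand shared by *Cxcr4* and *Ackr3*, was 18.8, 13, 16.2, 14.7 and 14.4 FPKM in saline-infused WT and 61.6, 19.2, 21.7, 23.9 and 21.0 in Ang II-infused WT mice. In *Plod1*-/- mice it was 15.8, 20.1, 12.2, 11.6 and 13.8 under saline and 49.2, 39.5, 49.2, 51.3 and 62.8 under Ang II. Both genotypes were higher in every Ang II-infused mouse, and Ang II-infused WT replicate 1 was at the level of the *Plod1*-/- group. The log2 fold change was 1.72 ± 0.16 (SE, adjusted p from limma = 4.78e-05) in *Plod1*-/- and 0.75 ± 0.27 (adjusted p = 0.0474) in WT mice, the latter under the size of a call, and the interaction was 0.97 ± 0.34 (adjusted p = 0.0294). *Cxcl12* in Ang II-infused *Plod1*-/- replicate 1, the mouse with 4.81 FPKM of *Cxcr4*, was 49.2 FPKM, the median of its group. *Mif*, an alternative ligand of CXCR4, rose by 1.06 ± 0.21 in *Plod1*-/- mice (adjusted p = 0.00253) from means of 89.9 to 192 FPKM, and was not called in WT mice.

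Ligands of *Ccr1* and *Ccr2* gave the largest changes of the list. For *Ccr1*, *Ccl6* rose from 7.07 to 45.3 FPKM under saline to 123 to 358 under Ang II in *Plod1*-/- mice, *Ccl9* from 3.37 to 12.6 to 33.1 to 114, and *Ccl3* from 0.137 to 1.19 to 3.66 to 33.8. Their log2 fold changes were 3.51, 3.37 and 3.53 (limma, adjusted p = 0.000315, 0.000136 and 0.000330). *Ccl5*, also a ligand of *Ccr1*, was at most 4.05 FPKM in any mouse, was not called with Ang II in *Plod1*-/- mice and did not reach the filter in WT mice. *Ccl4*, a close relative of *Ccl3*, rose by 2.0 ± 0.54 in *Plod1*-/- mice with overlapping ranges (adjusted p = 0.0123).

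For *Ccr2*, *Ccl2* was 0.863 to 4.92 FPKM under saline and 22.1 to 92.0 under Ang II in *Plod1*-/- mice, and *Ccl12* 0.664 to 10.1 and 11.7 to 45.8. In WT mice *Ccl2* was 2.14 to 17.1 under saline and 0.506 to 4.63 under Ang II, a call that was lost with no filter (limma, adjusted p = 0.0718). The ligand *Ccl7* was also called higher in *Plod1*-/- mice, at 41.6 to 115 FPKM under Ang II. *Ccl8*, a gene of the list that is not counted here as a *Ccr2* ligand, was called higher too, at 43.7 to 140 FPKM. In WT mice *Ccl8* alone of the list was called higher with Ang II, at 4.5 to 78.0 FPKM against 1.75 to 2.77 under saline.

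*Cx3cl1*, the ligand of *Cx3cr1*, was not called in any comparison. It was 5.38 to 7.11 FPKM in saline-infused WT, 6.62 to 15.9 in Ang II-infused WT, 7.39 to 9.75 in saline-infused *Plod1*-/- and 5.29 to 9.05 in Ang II-infused *Plod1*-/- mice. The log2 difference with Ang II was -0.22 ± 0.14 in *Plod1*-/- (limma, adjusted p = 0.233) and 0.50 ± 0.19 in WT mice (adjusted p = 0.0563), and the interaction was -0.72 ± 0.25 (adjusted p = 0.0271, under the size of a call). Under saline every *Plod1*-/- mouse was above every WT mouse, by 0.46 ± 0.10 (adjusted p = 0.0265, under the size of a call), as was the case for *Cx3cr1*. *Adm*, for which ACKR3 acts as a scavenger, was not called in either genotype, and *Cxcl11* was at most 0.0811 FPKM in any mouse and is annotated as a polymorphic pseudogene.

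**Figure D4:**
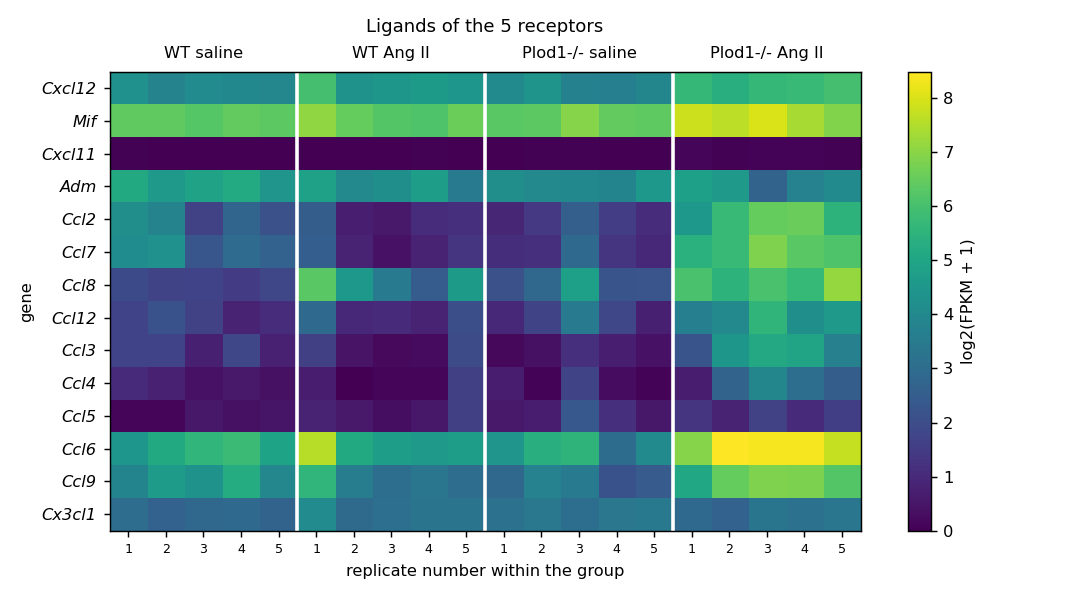
log2(FPKM + 1) of the 14 ligand genes (rows) in the 20 mice (columns, by group and replicate number). *Ccl2*, *Ccl7*, *Ccl6* and *Ccl9* were high in all 5 Ang II-infused *Plod1*-/- mice, *Cxcl12* in those mice and in Ang II-infused WT replicate 1, and *Cx3cl1* was between 5.29 and 15.9 FPKM in every mouse.

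A list of 21 other chemokine receptor genes was mostly low in this tissue. Of the 21, 8 reached 1 FPKM in at least 5 of the 20 mice, and 10 stayed under 1 FPKM in every mouse. With Ang II in *Plod1*-/- mice 7 were tested, of which *Cxcr2* and *Ackr1* were called higher and *Pitpnm3* lower. In WT mice 0 of 7 were called: *Ackr2*, *Ccr10*, *Ccrl2*, *Cmklr1*, *Gpr182* and *Pitpnm3* had an adjusted p from limma below 0.05 with log2 changes between -0.83 and 0.97, under the size of a call. Between the Ang II-infused genotypes *Cxcr2* was called higher in *Plod1*-/- mice among 7 tested.

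*Cxcr2*, the neutrophil receptor for CXCL chemokines, was at most 0.0920 FPKM in saline-infused *Plod1*-/- mice and 1.48, 6.81, 14.9, 15.6 and 7.99 in Ang II-infused *Plod1*-/- mice. The gain on the log2 scale was 3.04 ± 0.44 (SE, adjusted p from limma = 0.000408). It entered that fit only through the Ang II-infused group, and with no filter its adjusted p was 0.00170. In Ang II-infused WT mice it was 0.114 to 1.32 FPKM, and the gap between the Ang II-infused genotypes was 2.63 ± 0.46 (adjusted p = 0.00378, and 0.0146 with no filter). Replicate 1 was again the lowest Ang II-infused *Plod1*-/- mouse. *Cxcr2* was also counted among the neutrophil genes above.

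*Ackr1*, an atypical receptor of venular endothelium and red cells, rose from 0.499 to 1.70 FPKM under saline to 1.72 to 9.48 under Ang II in *Plod1*-/- mice, by 1.74 ± 0.33 (limma, adjusted p = 0.00194), and reached 1.66 to 10.5 FPKM in Ang II-infused WT mice. *Pitpnm3*, a phosphatidylinositol transfer protein also described as a CCL18 receptor, fell by 1.18 from 3.07 to 4.84 FPKM to 0.783 to 1.68 (adjusted p = 0.000153). *Cmklr1* and *Ccrl2*, both receptors of chemerin, were at 2.0 FPKM or above in every mouse and not called with Ang II in either genotype, at 8.46 to 19.0 and 2.0 to 20.5 FPKM in Ang II-infused *Plod1*-/- mice. The interaction was called positive for *Cxcr2* and *Cmklr1* among 8 tested. *Ccr1l1*, a close relative of *Ccr1* beside it on chromosome 9, was at most 0.129 FPKM in any mouse.

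**Figure D5:**
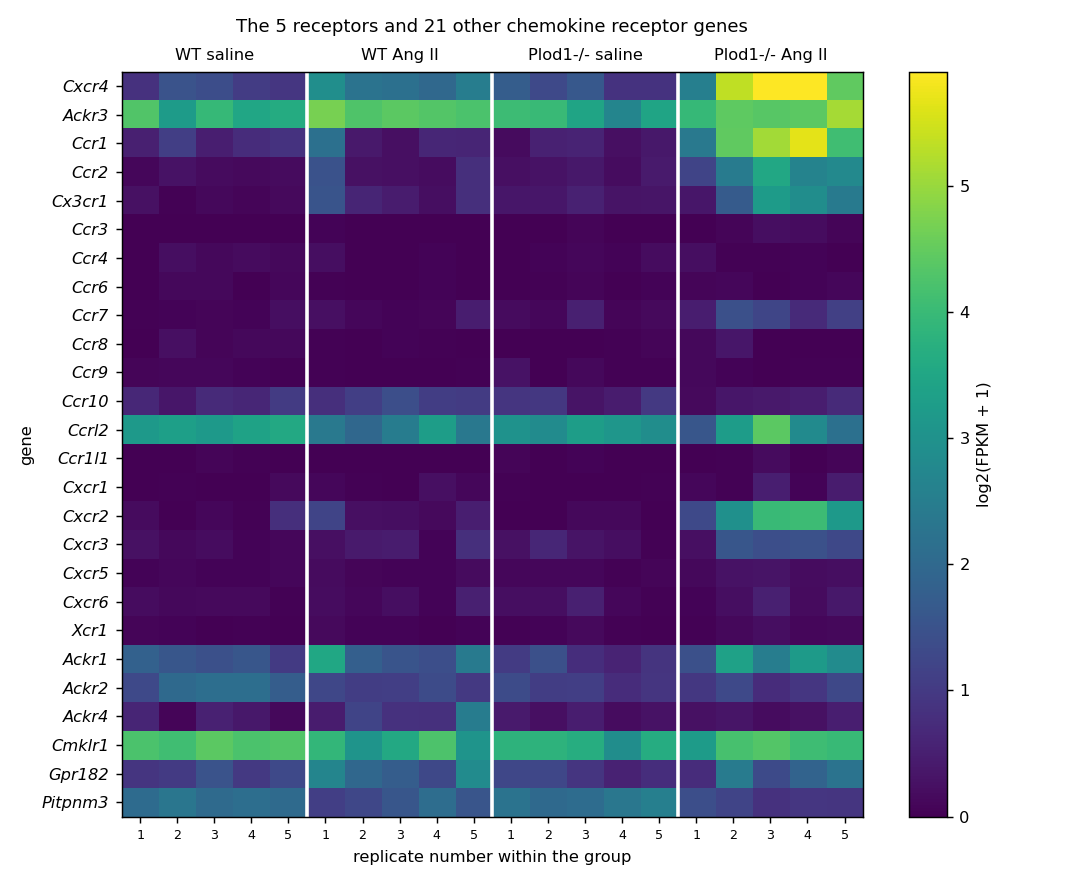
log2(FPKM + 1) of the 5 receptors (top rows) and 21 other chemokine receptor genes in the 20 mice (columns, by group and replicate number). *Cxcr2* was highest in Ang II-infused *Plod1*-/- replicates 2 to 5, as were *Cxcr4*, *Ccr1*, *Ccr2* and *Cx3cr1*, while *Ackr3*, *Ccrl2* and *Cmklr1* were detected in every group.

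Genes that act below these receptors were read from a list of 25. With Ang II in *Plod1*-/- mice 7 of 21 tested were called higher and 1 lower, with a median log2 fold change of 0.53 against 0.05 over all genes, and 11 of 25 higher and 1 lower with no filter. *Rac2*, the hematopoietic Rac GTPase, rose by 3.17 ± 0.51 (SE, adjusted p from limma = 0.000737) from 0.751 to 4.21 FPKM to 6.75 to 54.4. *Pik3r5*, a regulatory subunit of PI3K gamma, rose by 2.22 and *Gng2*, a G protein gamma subunit, by 2.21. *Arrb2*, the beta-arrestin that takes up agonist-bound receptors, rose by 2.07, and *Prex1*, a Rac exchange factor, by 1.49. *Rgs16* and *Rgs18*, which shorten G protein signals, rose by 2.13 and 1.28. No saline-infused *Plod1*-/- mouse reached 1 FPKM for *Pik3r5*, *Rgs16* or *Rgs18*, so these 3 entered the fit only through their Ang II-infused group.

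*Gnai1*, one of the inhibitory G protein alpha subunits, fell by 1.20 in *Plod1*-/- mice (limma, adjusted p = 9.76e-05), from 32 to 41.9 to 12.6 to 20.4 FPKM. *Gnai2*, the most abundant of the 3 alpha subunits, was 182 to 234 FPKM in Ang II-infused *Plod1*-/- and 142 to 209 in the other groups, and was not called. The kinases *Grk2*, *Grk3*, *Grk5* and *Grk6*, which phosphorylate activated receptors, were not called in any comparison. In WT mice 0 of 18 tested were called higher and 1, the chaperone *Hspa8*, lower, a call that was lost with no filter (limma, adjusted p = 0.0622). Between the Ang II-infused genotypes 8 of 22 were called higher in *Plod1*-/- mice and 0 lower, and the interaction was called positive for 10 of 22.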

How the data were processed

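RNA of the abdominal aorta of 20 mice, 1 library per mouse, was analysed. Per the study's methods, reads of ribosomal RNA were discarded by the authors, HISAT2 was the aligner, and stringtie, cuffquant and cuffnorm gave the gene levels with default settings. The deposited values are FPKM for 43422 Ensembl genes, which per the study's methods were normalized by cuffnorm. The submitters' processing notes list mm10, Bowtie2 2.2.3, HISAT2 2.1.0 and HTSeq 0.6.0, and do not give the role of each. Absolute depth is unknown, so no counting interval or limit is given. edgeR, which the authors name, needs counts and was not run.

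FPKM was transformed to log2(FPKM + 1) and fitted with limma 3.58.1 in R 4.3.3, with eBayes and a variance trend, on genes reaching 1 FPKM in 5 or more mice of a comparison (at least the size of the smaller group where a mouse was left out). The interaction was fitted on all 20 mice. P-values were adjusted by Benjamini-Hochberg over all genes tested. Receptors below the filter were compared by two-sided exact permutation tests. Coordinates came from GENCODE, symbols for 43226 genes from the same annotation, and promoter windows from RefSeq (GRCm38.p6). Figures were drawn with matplotlib 3.10.9. The fit was tested on simulated data.

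The receptors, gene lists, motifs and tests were chosen with earlier results of these data known. Named genes are the receptors, their ligands, genes of the lists that were called, receptors detected in at least 5 of 20 mice, and up to 5 of the genes most correlated with each receptor. Any other gene was named with its values in view. Alternative settings were no filter, a filter on the mean over all mice, a pseudocount of 0.1, a replicate block, eBayes without the trend, arrayWeights, quantile normalization, mitochondrial genes left out, both libraries with *Xist* RNA left out, all 4 groups in one fit, and each mouse left out in turn. The result for 1 gene is not reported here.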

Additional observations from a re-analysis of the deposited data

Results flagged for a closer look

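*Ccr1* in Ang II-infused WT replicate 1, at 3.55 FPKM, stood apart from the other 4 mice of its group by Dixon's test, and so did *Cx3cr1* in saline-infused *Plod1*-/- replicate 3, at 0.456 FPKM. These were 2 of 20 groups of 5 mice examined, and chance flags about 1 in 20. The response to Ang II differed between the genotypes by the interaction term of limma for *Cxcr4*, with a difference of the log2 fold changes of 2.32, for *Ccr1*, with 3.88, and for *Ccr2*, with 1.80. In all 3 the response was larger in *Plod1*-/- than in WT mice.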

How the results depend on the processing

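The number of receptors called with Ang II in *Plod1*-/- mice was 3 of 4 tested with the filter and 5 of 5 tested without both libraries with *Xist* RNA. With mice left out the filter followed the smaller group and so asked for fewer mice. Leaving out one mouse gave 3 to 5 for Ang II in *Plod1*-/- mice, with 5 without saline-infused replicate 1, saline-infused replicate 2 or Ang II-infused replicate 1. It gave 1 throughout in WT mice, 3 to 4 between the Ang II-infused genotypes, 0 between the saline-infused genotypes and 3 to 4 for the interaction. Signs changed only for values that were not called. *Ackr3* between the Ang II-infused genotypes was -0.03 after quantile normalization and with mitochondrial genes left out, and -0.09 to 0.20 on leaving out one mouse. *Ccr1* in WT mice was -0.07 with a pseudocount of 0.1 and -0.27 to 0.22 on leaving out one mouse. *Ackr3* between the saline-infused genotypes was -0.34 to 0.00 on leaving out one mouse. The cause was not tested.

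Quantile normalization moved the median log2 difference of all genes between the Ang II-infused genotypes from 0.12 to -0.04 and the genes called from 920 higher and 453 lower to 733 and 632. For the interaction the calls went from 1285 positive and 844 negative to 981 and 1146, and for Ang II in *Plod1*-/- mice from 1034 higher and 680 lower to 887 and 880. Correlations of deviations from the group means between same-numbered mice ran from -0.37 to 0.43. Mice with different numbers were not compared, so whether the numbers carry a pairing was not tested. With the replicate block the called receptors numbered 3 for Ang II in *Plod1*-/-, 1 in WT, 3 between the Ang II-infused and 0 between the saline-infused genotypes, and 3 for the interaction. Without both libraries with *Xist* RNA 4 receptors were called between the Ang II-infused genotypes and 4 for the interaction. The genes called between the saline-infused genotypes fell from 92 to 41 with no filter and 57 with all 4 groups in one fit, and rose to 149 with a pseudocount of 0.1. Between the Ang II-infused genotypes they rose from 1373 to 2134 with weights per mouse. Of the single receptor values in settings other than leaving out one mouse, 230 kept their direction and call, 7 gained a call, 5 lost it and 3 changed sign.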
